A study of Mus musculus with 12 samples.

Results

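Nucleus-confined transcripts of named genes were followed in growing oocytes of mice at day 14. A gene entered the group when each of the 3 wild-type (WT) nucleus libraries held at least 5 FPKM of it and the lowest WT nucleus held at least 8 times the highest WT cytoplasm. FPKM is the number of sequenced fragments scaled by transcript length and by the mapped fragments of the library. The factor thus compares shares of libraries, and the name nucleus-confined does not say where most copies of a transcript lie. Predicted genes, small RNAs, histones, some multigene families and 14 single names were left out by symbol. Of 23235 rows in the table, 208 met both thresholds, of which 129 bore a left-out name and 79 formed the group. These 79 genes were thus chosen by the WT values, so the difference between WT nuclei and WT cytoplasms is given as levels only.

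The libraries formed 4 sets of 3: nuclei of oocytes labelled MTR4-null (written Mtr4-null here), nuclei of WT oocytes, cytoplasms of Mtr4-null oocytes and cytoplasms of WT oocytes. Nucleus and cytoplasm had been parted by micromanipulation, and each library was made from total RNA of 10 nuclei or 10 cytoplasms after removal of ribosomal RNA. The sources used here do not give the strain, the Mtr4 allele, any Cre driver or the number of mice. No label ties the 3 libraries of a set to separate mice, so the p-values rest on a spread between libraries that may be technical.

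Most messenger RNAs leave the nucleus once they are spliced and polyadenylated, while RNAs that stay behind can be trimmed or degraded by the nuclear exosome, an assembly of RNA-degrading enzymes. MTR4, encoded by Skiv2l2, is the helicase that unwinds RNAs and feeds them to that exosome. A growing oocyte stores large amounts of messenger RNA in its cytoplasm, and its nucleus, the germinal vesicle, is transcribed actively.

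Skiv2l2 stood at 7.98, 0.182 and 1.12 FPKM in the Mtr4-null-labelled nuclei, against 6.06, 2.45 and 5.37 FPKM in WT nuclei. The library labelled as Mtr4-null nucleus replicate 1 thus lay above all 3 WT nuclei, which goes against its label. In the cytoplasms Skiv2l2 was at 1.04, 0.315 and 0.700 FPKM in Mtr4-null and at 21.1, 19.4 and 20.2 FPKM in WT. The library labelled as Mtr4-null nucleus replicate 3 had a Spearman correlation across genes of 0.933 with Mtr4-null cytoplasm replicate 1, and its 11 oocyte markers summed to 12234 FPKM, against 3664 to 7368 FPKM in WT nuclei. The nuclear counts below are therefore given with and without each of these libraries. Scarna2, an RNA of Cajal bodies, made up 58.0 to 81.7% of each nucleus library's FPKM sum, and FPKM is a share, so such an RNA lowers all other values of its library. The oocyte markers were high in every library. Markers of granulosa cells (12 genes) summed to 7.83 to 42.5 FPKM over the 12 libraries, those of theca and stroma (9 genes) to 0.343 to 30.9 FPKM and those of blood and endothelium (6 genes) to 2.81 to 17.4 FPKM. The granulosa sum was highest in WT cytoplasms, where Nr5a2 was at 26.6 to 30.6 FPKM and made up most of it. There Cyp19a1 was at 2.35 to 5.51, Kitl at 2.78 to 3.49 and Foxl2 at 0.0222 to 0.121 FPKM. Tcf21, Hbb-b1 and Hba-a1 were listed at 0 throughout, and the highest theca and stroma sum, largely of Col1a1 and Col1a2, lay in WT nucleus replicate 2.

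The 79 genes were mostly messenger RNA genes of modest nuclear level. RefSeq classes 71 as protein coding, 6 as long noncoding RNA, 1 as antisense RNA and 1 as transcribed pseudogene. Their mean over the WT nuclei had a median of 14.7 FPKM and ranged between 5.38 and 13683 FPKM, with 27 genes under 10 FPKM and 8 genes at 100 FPKM or more. The lowest WT nucleus exceeded the highest WT cytoplasm by a median factor of 19.8, and by a factor of 100 or more in 8 genes. The largest factor, 818, belonged to Capn2, the gene of a calpain protease subunit. Of the 79, 17 were listed at 0 in at least 1 WT cytoplasm and 0 were at 0 in all 3. Just inside the threshold lay Cd209c (factor 8.23), Slc5a4a (8.41) and Cnpy1 (8.54), and just outside lay Ankrd10 (7.80), Irak1bp1 (7.66) and Slc35f4 (7.62). WT nucleus replicate 2 was the lowest WT nucleus for 65 of the 79.

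**Figure D1:**
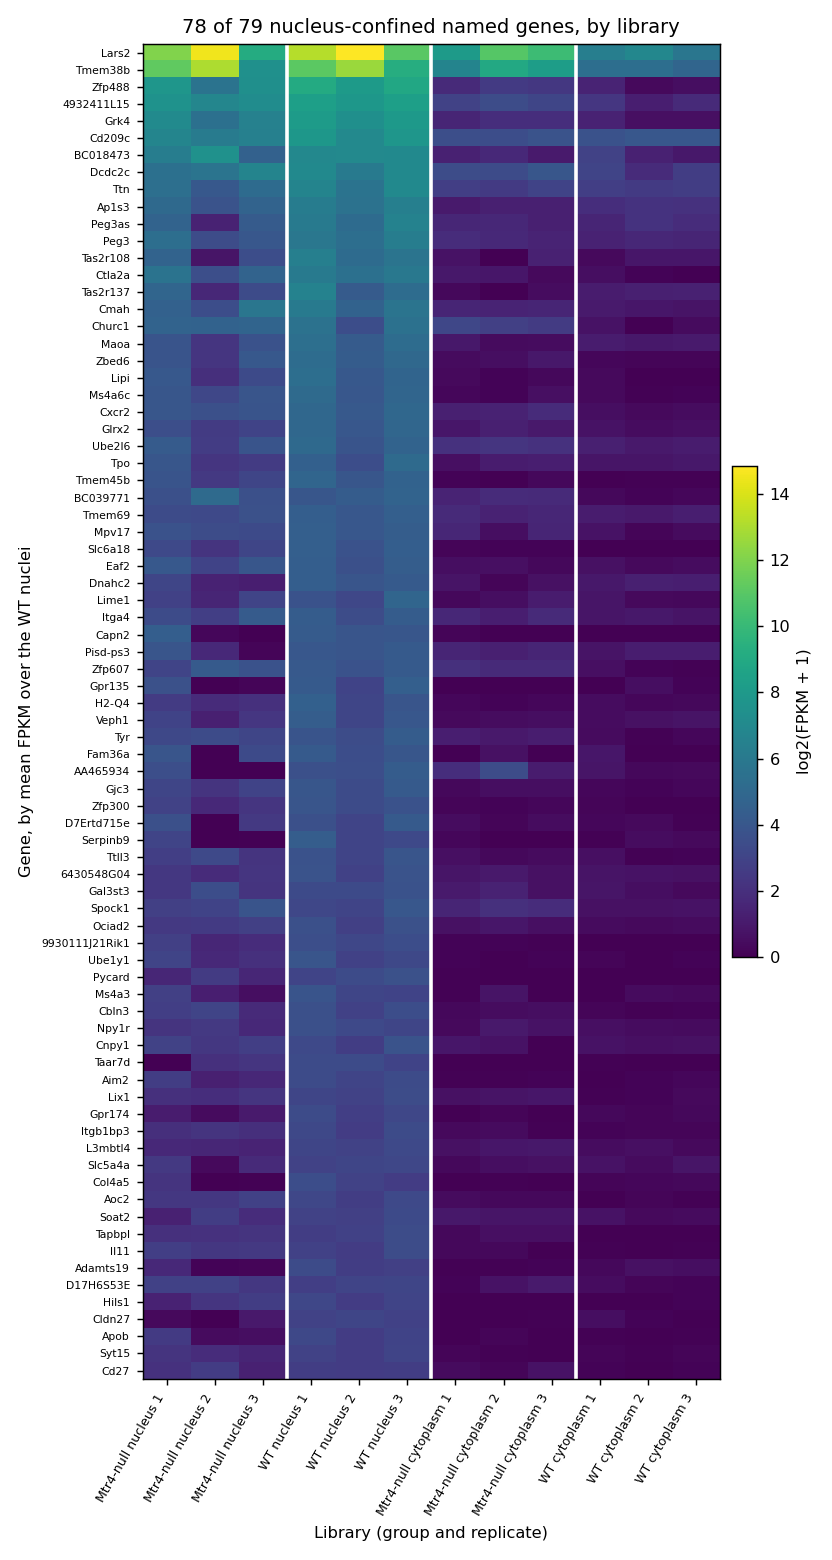
Level of 78 of the 79 genes (rows, ordered by mean FPKM over the WT nuclei) in each of the 12 libraries (columns), as log2(FPKM + 1). The nuclei are bright and the cytoplasms dark for nearly all rows, the Mtr4-null-labelled nuclei are dimmer than the WT nuclei for most rows, and Lars2 and Tmem38b at the top stay bright in Mtr4-null cytoplasms.

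Lars2, the mitochondrial leucyl-tRNA synthetase gene, and Tmem38b, which encodes a cation channel of the endoplasmic reticulum, stood apart by level and by spread. Lars2 was at 4255, 23922 and 558 FPKM in the Mtr4-null-labelled nuclei and at 9461, 29444 and 2143 FPKM in WT nuclei. In the cytoplasms Lars2 was at 268, 1984 and 1180 FPKM in Mtr4-null and at 79.4, 115 and 55.1 FPKM in WT. Within each nuclear set the 3 libraries thus lay more than an order of magnitude apart, so the groups of nuclei overlapped, while the cytoplasms did not. Tmem38b was at 2395, 8466 and 174 FPKM in the Mtr4-null-labelled nuclei and at 2243, 6377 and 602 FPKM in WT nuclei. Its cytoplasmic levels were 104, 499 and 312 FPKM in Mtr4-null and 40.4, 40.4 and 27.8 FPKM in WT. Both genes were highest in replicate 2 of each nuclear set and of the Mtr4-null cytoplasms. Rn45s, the row of the ribosomal RNA precursor, was at 2211, 20429 and 9796 FPKM in Mtr4-null cytoplasms, at 1880, 805 and 332 FPKM in WT cytoplasms, and listed at 0 in all 6 nuclei. Its part in the levels of Lars2 and Tmem38b was not tested.

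The other genes with high nuclear levels had tighter values. Zfp488, a zinc finger gene of oligodendrocyte development in mice, stood at 223, 48.9 and 168 FPKM in the Mtr4-null-labelled nuclei and at 535, 268 and 485 FPKM in WT nuclei. Its cytoplasmic levels were 2.35, 4.78 and 4.24 FPKM in Mtr4-null and 1.77, 0.319 and 0.490 FPKM in WT. In each compartment the genotypes did not overlap, in opposite directions. Grk4, a kinase gene for G protein-coupled receptors, was at 134, 44.4 and 89.2 FPKM in the Mtr4-null-labelled nuclei, against 279, 165 and 264 FPKM in WT nuclei. In the cytoplasms Grk4 was at 1.93, 2.83 and 2.91 FPKM in Mtr4-null and at 1.63, 0.512 and 0.499 FPKM in WT. Grk4 had the same order as Zfp488, with Mtr4-null lower in the nuclei and higher in the cytoplasms. The promoters of these genes are shown with that of Churc1, described with the cytoplasms, and with that of Tas2r137, a bitter taste receptor gene, because the members' promoters ranged widely in CG content. Each is a window of 300 bases around the RefSeq start (build GRCm38.p6), with CG dinucleotides in capitals, at chr14:33978715-33979014 (minus strand), chr5:34660129-34660428 (plus), chr12:76765288-76765587 (plus) and chr6:40490988-40491287 (plus) in the order printed:
Zfp488: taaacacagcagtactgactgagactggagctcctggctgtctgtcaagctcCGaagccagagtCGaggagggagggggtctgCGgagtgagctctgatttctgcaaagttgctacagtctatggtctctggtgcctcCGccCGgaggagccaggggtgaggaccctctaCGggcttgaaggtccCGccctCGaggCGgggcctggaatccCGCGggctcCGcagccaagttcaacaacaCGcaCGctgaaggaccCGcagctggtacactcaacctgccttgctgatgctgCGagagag
Grk4: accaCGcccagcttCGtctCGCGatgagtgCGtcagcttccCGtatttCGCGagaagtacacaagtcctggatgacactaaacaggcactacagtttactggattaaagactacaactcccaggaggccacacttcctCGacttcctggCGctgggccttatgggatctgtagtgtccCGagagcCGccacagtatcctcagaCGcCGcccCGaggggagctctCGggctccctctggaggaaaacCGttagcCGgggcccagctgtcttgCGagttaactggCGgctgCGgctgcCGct
Churc1: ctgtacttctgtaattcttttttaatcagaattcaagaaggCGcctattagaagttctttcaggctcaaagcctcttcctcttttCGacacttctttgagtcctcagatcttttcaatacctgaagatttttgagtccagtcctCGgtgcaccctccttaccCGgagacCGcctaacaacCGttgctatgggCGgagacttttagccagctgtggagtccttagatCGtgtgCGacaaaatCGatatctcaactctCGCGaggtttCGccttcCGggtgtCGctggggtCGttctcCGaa
Tas2r137: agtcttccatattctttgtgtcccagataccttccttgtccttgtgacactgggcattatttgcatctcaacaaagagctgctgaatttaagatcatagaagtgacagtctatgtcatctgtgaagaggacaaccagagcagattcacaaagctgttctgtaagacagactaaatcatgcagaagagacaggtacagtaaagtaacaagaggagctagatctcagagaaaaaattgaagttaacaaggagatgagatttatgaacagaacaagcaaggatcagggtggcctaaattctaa
Zfp488 has 16 CG dinucleotides in this window, Grk4 22, Churc1 17 and Tas2r137 0.

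Among all 76 promoters of the 65 members found in the table, the median was 8 CG per 300 bases, against 7 among 32851 promoters of all genes. The median GC content was 51.7% for the members and 52.7% for all. The motif TATAAA, searched on both strands, lay in 14.5% of the members' promoters and in 13.6% of all. By these measures, the promoters of the members were close to those of all genes. The longest transcript had a median of 3133 bases in the 76 members with a GENCODE transcript and 3179 bases over the tested genes, and the median number of exons was 5 and 7. Single-exon genes were 7 of these members (9.21%, against 7.12% of tested genes): Tas2r108, Tas2r137, Taar7d, Gpr135, Hils1, Zbed6 and Tmem45b. At the other end Ttn, the gene of the giant sarcomere protein titin, has 347 exons in GENCODE.

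4932411L15, a long noncoding RNA gene that RefSeq lists as Gm17644, was at 188, 110 and 147 FPKM in the Mtr4-null-labelled nuclei and at 337, 234 and 327 FPKM in WT nuclei. Its cytoplasmic levels were 6.71, 9.90 and 7.47 FPKM in Mtr4-null and 4.03, 1.42 and 2.35 FPKM in WT. Neither compartment showed an overlap between the genotypes. BC018473, another long noncoding RNA gene, was at 78.5, 180 and 23.9 FPKM in the Mtr4-null-labelled nuclei and at 120, 125 and 132 FPKM in WT nuclei, which overlapped. Cd209c, a C-type lectin receptor gene, was at 107, 70.4 and 88.4 FPKM in the Mtr4-null-labelled nuclei and at 227, 128 and 218 FPKM in WT nuclei. Its cytoplasmic values, 10.9, 10.4 and 12.8 FPKM in Mtr4-null and 12.4, 15.5 and 15.3 FPKM in WT, overlapped and were among the higher ones of the group. Dcdc2c, a doublecortin domain gene, averaged 65.8 ± 31.7 FPKM in the Mtr4-null-labelled nuclei and 110 ± 35.7 FPKM in WT nuclei (SD, n = 3 each). Ttn averaged 31.2 ± 13.5 FPKM in the Mtr4-null-labelled nuclei, against 95.3 ± 41.2 FPKM in WT nuclei. All 3 Mtr4-null-labelled nuclei lay below every WT nucleus for Ttn, and not for Dcdc2c.

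The contrast between the nuclei and the cytoplasms labelled Mtr4-null compared means of libraries that had not chosen the genes. Its common variance estimate and its filter also used the WT libraries, which had chosen them. In this contrast 63 of the 79 genes were higher in the nucleus (limma on log2(FPKM + 1), adjusted p below 0.05), against 4.08% of the 13157 tested genes. None was lower, also at an unadjusted p below 0.05, while 28.1% of tested genes were lower. The log2 fold change was positive in 78 of 79 genes with a median of 1.95, against -0.82 over all tested genes. In 63 genes every nucleus lay above every cytoplasm (5.95% of tested genes), in 0 every cytoplasm above every nucleus (35.8% of tested genes), and in 23 the lowest nucleus held at least 8 times the highest cytoplasm (1.14% of tested genes). Each library labelled Mtr4-null nucleus kept most of the genes above all 3 Mtr4-null cytoplasms: 78 in replicate 1, 69 in replicate 2 and 72 in replicate 3, against 16.1, 10.9 and 22.4% of tested genes. Without the library labelled as Mtr4-null nucleus replicate 1 the count was 50 genes higher and 1 lower (2.03 and 0.654% of tested genes), without replicate 3 it was 67 higher (4.98% higher and 60.4% lower of tested genes), and without both 56 higher and 1 lower (4.71 and 61.5% of tested genes). The count of genes called higher was 40, 40 and 42 on leaving out Mtr4-null cytoplasm replicates 1, 2 and 3 (1.21, 1.20 and 1.21% of tested genes). A fit of the nuclei and cytoplasms labelled Mtr4-null alone called 41 of the 66 genes it could test (1.49% higher and 0.223% lower of its tested genes).

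The members moved against a background that depended on the scaling. Median-of-ratios scaling and quantile normalization brought the median of all tested genes to -0.03 and -0.10, and relative to it the members' median was 2.77 as deposited, 2.57 and 2.49. Over all tested genes the calls were 537 higher and 3693 lower as deposited, 615 and 34 after median-of-ratios scaling, and 409 and 78 after quantile normalization. Among the members 63, 61 and 56 were called higher and 0 lower in these 3 fits.

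**Figure D2:**
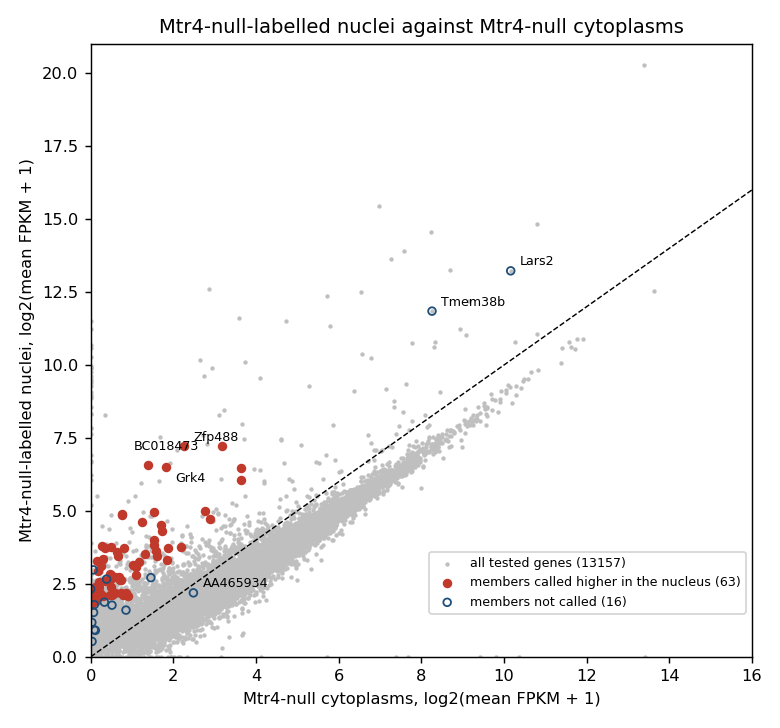
Mean level over the 3 nuclei (vertical axis) and over the 3 cytoplasms (horizontal axis) labelled Mtr4-null, both as log2(mean FPKM + 1), for all 13157 tested genes (grey) and the 79 nucleus-confined genes (red where called higher in the nucleus, open blue where not called). All but AA465934 lie above the dashed line of equal levels, where most tested genes lie below it.

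The 4 largest differences between the compartments labelled Mtr4-null belonged to genes with high nuclear levels. On the log2(FPKM + 1) scale a gene near 0 in the cytoplasms can differ by no more than its nuclear level allows. This order is thus partly set by the scale. Lars2 and Tmem38b, the members highest in WT nuclei, were not called. BC018473 was higher in the nucleus by 4.79 ± 0.60 on the log2 scale (SE; limma adjusted p = 0.000282), Zfp488 by 4.73 ± 0.51 (adjusted p = 7.05e-05) and Grk4 by 4.54 ± 0.41 (adjusted p = 1.34e-05). For 4932411L15 the difference was 4.03 ± 0.34 (adjusted p = 8.29e-06). The nuclei lay above the cytoplasms in every library for these 4 genes. Lower in this order, with other members between, Ap1s3, a subunit gene of the clathrin adaptor AP-1, differed by 3.28 ± 0.37 (adjusted p = 0.000104) and Cd209c by 2.84 ± 0.31 (adjusted p = 7.94e-05). These 6 calls held in every alternative run, as did that of Ctla2a. Ctla2a, a gene of the cathepsin inhibitor family with close relatives and therefore uncertain, was named after its values were seen and differed by 3.92 ± 0.45 (adjusted p = 0.000126). Single libraries decided other calls of this contrast: those of Cd27, Itga4, Churc1, Dnahc2 and Peg3as were lost without any 1 of the Mtr4-null cytoplasms. Those of H2-Q4 were lost without cytoplasm replicate 1 or 2, of Zfp607 without 2 or 3, of Glrx2 without 1 and of Ttn without 2, with adjusted p reaching 0.0586, 0.0716, 0.0578 and 0.0523. Churc1, Dnahc2 and Peg3as also lost the call without the library labelled as Mtr4-null nucleus replicate 1, Churc1 and Dnahc2 without replicate 2, and Peg3as without replicate 3.

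In this contrast 16 genes were not called. Lars2 (log2 2.16 ± 1.15, limma adjusted p = 0.13) and Tmem38b (2.58 ± 1.10, adjusted p = 0.071) were among them, with the wide spread described above. AA465934, a long noncoding RNA gene, had the only negative value (-0.98 ± 0.78, adjusted p = 0.298): it stood at 10.7, 0 and 0 FPKM in the Mtr4-null-labelled nuclei and at 2.79, 9.82 and 1.17 FPKM in Mtr4-null cytoplasms. In RefSeq it overlaps the row of the small nucleolar RNA Snord7. The others were Adamts19, Apob, Capn2, Cldn27, Col4a5, D7Ertd715e, Gpr135, Gpr174, L3mbtl4, Ms4a3, Pisd-ps3, Serpinb9 and Slc5a4a, of which D7Ertd715e is the RefSeq gene Snhg14.

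By role, 25 of the 79 genes fell into lists of gene families drawn up with earlier results of these data known. The shares of tested genes given beside them include rows under left-out names, which no member could bear, so the 2 shares are not fully alike. Cxcr2 was counted with the cytokine and chemokine list only. G protein-coupled receptors were the largest class, with 6 genes, or 7.59% of the members against 0.608% of tested genes: the bitter taste receptors Tas2r108 and Tas2r137, the orphan receptor Gpr135, the neuropeptide Y receptor Npy1r, the trace amine receptor Taar7d and the lysophosphatidylserine receptor Gpr174. Of these, 4 were called higher in the nuclei than in the cytoplasms labelled Mtr4-null, beside 79.7% of the 79 genes and 4.08% of tested genes. Tas2r108 was at 25.8, 0.817 and 10.3 FPKM in the Mtr4-null-labelled nuclei and at 85.4, 35.3 and 50.9 FPKM in WT nuclei. Its highest cytoplasmic value in Mtr4-null was 1.57 FPKM. Tas2r137 was at 27.3, 2.12 and 9.62 FPKM in the Mtr4-null-labelled nuclei and at 93.8, 17.8 and 36.8 FPKM in WT nuclei. The WT nuclei of Tas2r137 spanned a wide range, and that of replicate 2 lay below the highest nucleus labelled Mtr4-null. These receptors are neighbours in RefSeq and both have 1 exon. Npy1r was at 3.71, 4.63 and 2.22 FPKM in the Mtr4-null-labelled nuclei and at 11.2, 8.87 and 7.51 FPKM in WT nuclei, without overlap. Taar7d, which belongs to a family of near-identical genes and is therefore uncertain, was listed at 0 in all 3 Mtr4-null cytoplasms and averaged 2.40 ± 2.11 FPKM in the Mtr4-null-labelled nuclei, against 8.64 ± 1.39 FPKM in WT nuclei. The calls of Tas2r108, Tas2r137 and Npy1r between the compartments labelled Mtr4-null were lost without the library labelled as Mtr4-null nucleus replicate 1 and without any 1 of the Mtr4-null cytoplasms, with adjusted p over all alternatives reaching 0.809, 0.0858 and 0.121.

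Zinc finger genes gave 4 members (5.06%, against 2.39% of tested genes), among them Zfp488, Zfp607 and Zfp300. These 4 were called higher in the nuclei than in the cytoplasms labelled Mtr4-null, beside 79.7% of the 79 genes and 4.08% of tested genes. Zfp300 averaged 4.26 ± 2.16 FPKM in the Mtr4-null-labelled nuclei and 12.01 ± 2.45 FPKM in WT nuclei, and at most 0.219 FPKM in any cytoplasm of Mtr4-null. Zfp607 comes from a family of similar genes, so its value is uncertain. Genes of cell adhesion gave 4 members by symbol (5.06%, against 0.502% of tested genes). Of these, 3 were called higher in the nuclei than in the cytoplasms labelled Mtr4-null. Over the 79 genes the share so called was 79.7%, and over the tested genes 4.08%. Itga4, the integrin alpha 4 gene, averaged 11.2 ± 6.53 FPKM in the Mtr4-null-labelled nuclei and 15.98 ± 5.17 FPKM in WT nuclei. Gjc3, a gap junction connexin gene, averaged 6.04 ± 2.01 FPKM in the Mtr4-null-labelled nuclei and 13.7 ± 3.86 FPKM in WT nuclei. Itgb1bp3, caught by its symbol, is the nicotinamide riboside kinase gene Nmrk2 of RefSeq, and Cldn27 is the claudin-like gene Tmem235.

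The list of cytokines, chemokines and their receptors gave Cxcr2 and Il11, and that of immunoglobulin, T-cell receptor and lectin-like receptor genes gave Cd209c and Cd27, each 2.53% of the members, against 0.509 and 0.654% of tested genes. All 4 were called higher in the nuclei than in the cytoplasms labelled Mtr4-null, beside 79.7% of the 79 genes and 4.08% of tested genes. Cxcr2, a chemokine receptor gene of neutrophils, was at 14.7, 11.3 and 13.7 FPKM in the Mtr4-null-labelled nuclei and at 29.9, 16.4 and 30.1 FPKM in WT nuclei. In the cytoplasms Cxcr2 was at 1.504, 1.68 and 2.53 FPKM in Mtr4-null and at 0.461, 0.312 and 0.381 FPKM in WT. Among the markers of blood and endothelium Ptprc, the common leukocyte gene CD45, was at most 0.435 FPKM in any library, while Pecam1, of endothelium and blood cells, was at 2.81 to 16.9 FPKM and made up most of the summed level. Their part in the levels of these 4 genes was not tested. Il11, an interleukin gene, averaged 4.84 ± 0.765 FPKM in the Mtr4-null-labelled nuclei and 7.11 ± 2.41 FPKM in WT nuclei. Cd27, a receptor gene of the tumour necrosis factor family, averaged 3.38 ± 1.88 FPKM in the Mtr4-null-labelled nuclei and 5.38 ± 0.130 FPKM in WT nuclei. Cd27 and its neighbour Tapbpl both overlap E130112N10Rik in RefSeq, and the sources used here do not say whether strand was used, so their reads cannot be told apart.

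Solute carriers gave Slc6a18 and Slc5a4a, 2.53% of the members and 2.33% of tested genes. Slc6a18, an amino acid transporter gene of the kidney, was at 8.53, 3.68 and 7.63 FPKM in the Mtr4-null-labelled nuclei and at 21.7, 12.4 and 20.6 FPKM in WT nuclei. Its cytoplasmic levels were 0.169, 0.109 and 0.0850 FPKM in Mtr4-null and 0.0190, 0.0122 and 0 FPKM in WT. Slc5a4a, of the sodium-glucose cotransporter family, averaged 2.41 ± 2.12 FPKM in the Mtr4-null-labelled nuclei and 7.43 ± 0.786 FPKM in WT nuclei. Glrx2, a mitochondrial glutaredoxin gene, and Syt15, of the synaptotagmins, were also called higher in the nuclei than in the cytoplasms labelled Mtr4-null. Keratins, epidermal and S100 genes, defensins, homeobox genes, testis families and metabolic enzymes of the lists gave 0 members. Each of these lists made up at most 0.555% of tested genes, so 0 says little. They go by symbol and do not hold every gene of a kind.

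The imprinted gene Peg3 and the antisense row Peg3as are neighbours that overlap. Peg3 was at 39.7, 10.1 and 15.4 FPKM in the Mtr4-null-labelled nuclei and at 58.5, 40.6 and 78.4 FPKM in WT nuclei, and Peg3as at 25.5, 1.71 and 17.97 FPKM in the Mtr4-null-labelled nuclei and at 66.4, 36.1 and 95.6 FPKM in WT nuclei. In both rows every nucleus labelled Mtr4-null lay below every WT nucleus, but without stranded counting their reads cannot be told apart. Of the 77 genes with a place in RefSeq, 17 overlapped another row (22.1%, against 26.02% of tested genes). In 8 of them the partner was at least as high in WT nuclei, among them Fam36a with Hnrnpu, Ttll3 with Arpc4, Lime1 with Zbtb46 and Hils1 with Sgca. Ube1y1, the ubiquitin-activating enzyme gene of the Y chromosome, averaged 4.23 ± 2.73 FPKM in the Mtr4-null-labelled nuclei and 9.54 ± 4.11 FPKM in WT nuclei, although oocytes come from females. Of 4044 stretches of 25 bases in its GENCODE transcripts, 22 also occur in those of its relative Uba1 on the X chromosome. That relative was at 46.1, 31.8 and 111 FPKM in the Mtr4-null-labelled nuclei and at 44.1, 34.3 and 42.8 FPKM in WT nuclei. Uba1 was at 132 to 147 FPKM in Mtr4-null cytoplasms, where Ube1y1 was at most 0.120 FPKM, and the part of Uba1 in the Ube1y1 row was not tested.

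Between the nuclei the genes were lower in the libraries labelled Mtr4-null than in WT. The rule required high values in WT nuclei, so this direction is partly set by the choice of genes and the counts are a description. Of 79 genes, 10 were called lower and 0 higher (limma adjusted p below 0.05; 60 lower and 0 higher unadjusted), against 1.75% lower and 0.517% higher of tested genes. All 79 log2 fold changes were negative, with a median of -1.33, against 0.04 over all tested genes. In 46 genes every nucleus labelled Mtr4-null lay below every WT nucleus and in 0 above (6.70 and 6.22% of tested genes). Taken singly, the libraries labelled as replicates 1, 2 and 3 lay below every WT nucleus in 60, 68 and 68 genes (25.7, 50.6 and 13.6% of tested genes). Their summed FPKM without Lars2 and Tmem38b was 1575, 875 and 1206 in the Mtr4-null-labelled nuclei and 3315, 1923 and 3219 in WT nuclei. In pooled nuclei, fewer nuclei that hold a transcript and less transcript per nucleus cannot be told apart.

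The count of called genes rested on single libraries and on the fit. Without the library labelled as Mtr4-null nucleus replicate 1 it was 45 lower and 0 higher (5.51 and 4.66% of tested genes), and in 59 genes both other nuclei lay below every WT nucleus (11.2% of tested genes). Without replicate 3 it was again 10 lower and 0 higher (2.52 and 0.446% of tested genes), and without both it was 53 lower and 0 higher (25.6 and 5.10% of tested genes). The count of genes called lower was 2, 13 and 2 on leaving out WT nucleus replicates 1, 2 and 3 (0.0861, 1.19 and 0.0942% of tested genes). A fit of the nuclei alone called 0 (44 lower unadjusted), where 0.0660% lower and 0.0578% higher of its tested genes were called. Median-of-ratios scaling gave 47 and quantile normalization 45, with a median of all tested genes of -0.12 and 0.02. Relative to that median the members' median was -1.37 as deposited, -1.40 and -1.54. Over all tested genes the calls were 68 higher and 230 lower as deposited, 373 and 1074 after median-of-ratios scaling, and 498 and 642 after quantile normalization.

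**Figure D3:**
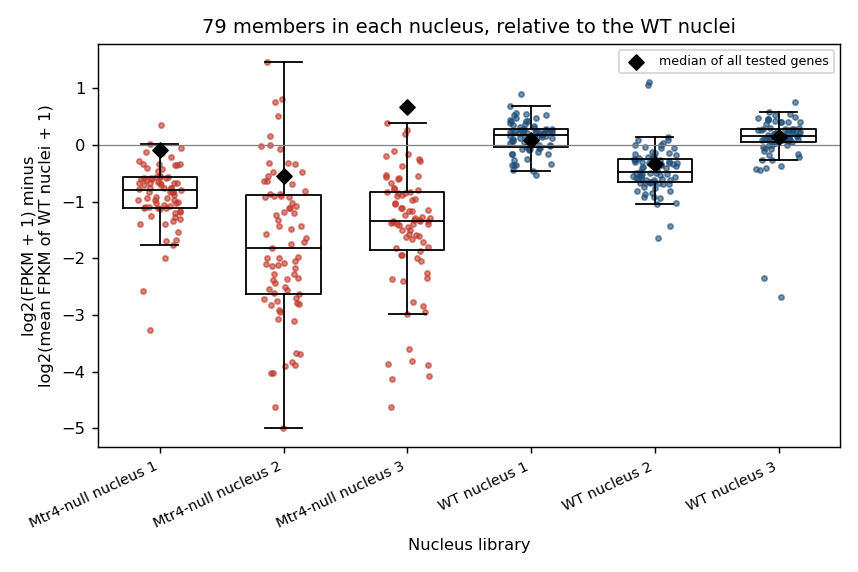
Level of each of the 79 genes in each nucleus library relative to the WT nuclei (vertical axis, log2(FPKM + 1) minus log2 of the WT nucleus mean FPKM + 1), with boxes for the quartiles and median and whiskers to the last value within 1.5 box heights. The members' medians are -0.79, -1.81 and -1.34 in the Mtr4-null-labelled nuclei and 0.17, -0.47 and 0.15 in WT nuclei, and black diamonds give the median of all tested genes.

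Library by library, the members' median log2 ratio to the WT nucleus mean was -0.79, -1.81 and -1.34 in the Mtr4-null-labelled nuclei, where all tested genes had medians of -0.09, -0.55 and 0.67. In the WT nuclei it was 0.17, -0.47 and 0.15, beside 0.09, -0.34 and 0.15 for all tested genes. The members thus lay below all tested genes by the most in the library labelled as Mtr4-null nucleus replicate 3, which was also the one closest to a cytoplasm. To set the Mtr4-null-labelled nuclei beside a WT nucleus that had not chosen the genes, the rule was applied without 1 WT nucleus at a time. Genes chosen without WT nucleus replicate 1 (89 genes) had medians of -0.72, -1.59 and -1.26 in the Mtr4-null-labelled nuclei, against 0.21 in the WT nucleus left out. Those chosen without WT nucleus replicate 3 (89 genes) had medians of -0.75, -1.94 and -1.25 in the Mtr4-null-labelled nuclei and 0.19 in the nucleus left out. Without WT nucleus replicate 2, 163 genes were chosen, with -0.98, -2.01 and -1.47 in the Mtr4-null-labelled nuclei and -0.83 in WT nucleus replicate 2. All tested genes then had medians of -0.22, -0.67 and 0.54 in the Mtr4-null-labelled nuclei and -0.48 in WT nucleus replicate 2. In WT nucleus replicates 1 and 3 the median of all tested genes was 0.14 and 0.23 when left out.

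The nucleus left out kept at least 8 times the highest WT cytoplasm in 86 of 89, 113 of 163 and 85 of 89 genes chosen without WT nucleus replicates 1, 2 and 3. The WT cytoplasms had taken part in that choice. The same count over all tested genes was not made, so these counts are a description only.

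The 10 genes called lower in the Mtr4-null-labelled nuclei had various roles. Cldn27, a claudin-like membrane protein gene, was at 0.307, 0 and 1.02 FPKM in the Mtr4-null-labelled nuclei and at 6.47, 7.54 and 6.25 FPKM in WT nuclei (log2 fold change -2.48 ± 0.31, limma adjusted p = 0.00127). Gpr174 was at 1.23, 0.338 and 1.13 FPKM in the Mtr4-null-labelled nuclei and at 9.68, 5.67 and 8.08 FPKM in WT nuclei (log2 -2.22 ± 0.31, adjusted p = 0.0023). These genes were near 0 in all 3 Mtr4-null-labelled nuclei, replicate 1 included, and a fit of the nuclei alone was the only alternative that ended their calls (adjusted p = 0.076 and 0.134). Dnahc2, a dynein heavy chain gene of motile cilia, was at 7.63, 1.63 and 1.35 FPKM in the Mtr4-null-labelled nuclei and at 20.3, 14.1 and 17.2 FPKM in WT nuclei (log2 -2.26 ± 0.44, adjusted p = 0.0172). Ap1s3 was at 33.4, 12.7 and 24.96 FPKM in the Mtr4-null-labelled nuclei and at 75.1, 46.5 and 83.6 FPKM in WT nuclei (log2 -1.55 ± 0.37, adjusted p = 0.042). In both genes the sets were well separated.

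Adamts19, a metalloprotease gene (log2 -2.26 ± 0.39, limma adjusted p = 0.00979), Col4a5, a basement membrane collagen gene (-2.24 ± 0.48, adjusted p = 0.0247), and H2-Q4, a class I major histocompatibility gene with close relatives and therefore uncertain (-1.72 ± 0.37, adjusted p = 0.0267), were also lower. So were Glrx2 (-1.60 ± 0.37, adjusted p = 0.0366), L3mbtl4, a chromatin reader gene (-1.49 ± 0.29, adjusted p = 0.0159), and Pycard, the inflammasome adaptor gene ASC (-1.43 ± 0.33, adjusted p = 0.0376). The calls of Adamts19, Dnahc2, H2-Q4, Glrx2, Ap1s3 and Col4a5 were each lost without WT nucleus replicate 1 or 3. Glrx2, Ap1s3 and Col4a5 also lost them without Mtr4-null nucleus replicate 2, and Col4a5 without Mtr4-null nucleus replicate 3 or WT nucleus replicate 2. Pycard and L3mbtl4 were lost without WT nucleus replicate 1 or 3, and Pycard also without Mtr4-null nucleus replicate 3 or WT nucleus replicate 2. The adjusted p reached 0.141 (Adamts19 and Dnahc2), 0.331 (H2-Q4), 0.336 (Glrx2 and Ap1s3), 0.19 (Col4a5), 0.399 (L3mbtl4) and 0.446 (Pycard) over the alternatives. Of the 10 genes, 5 were also called between the compartments labelled Mtr4-null.

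**Figure D4:**
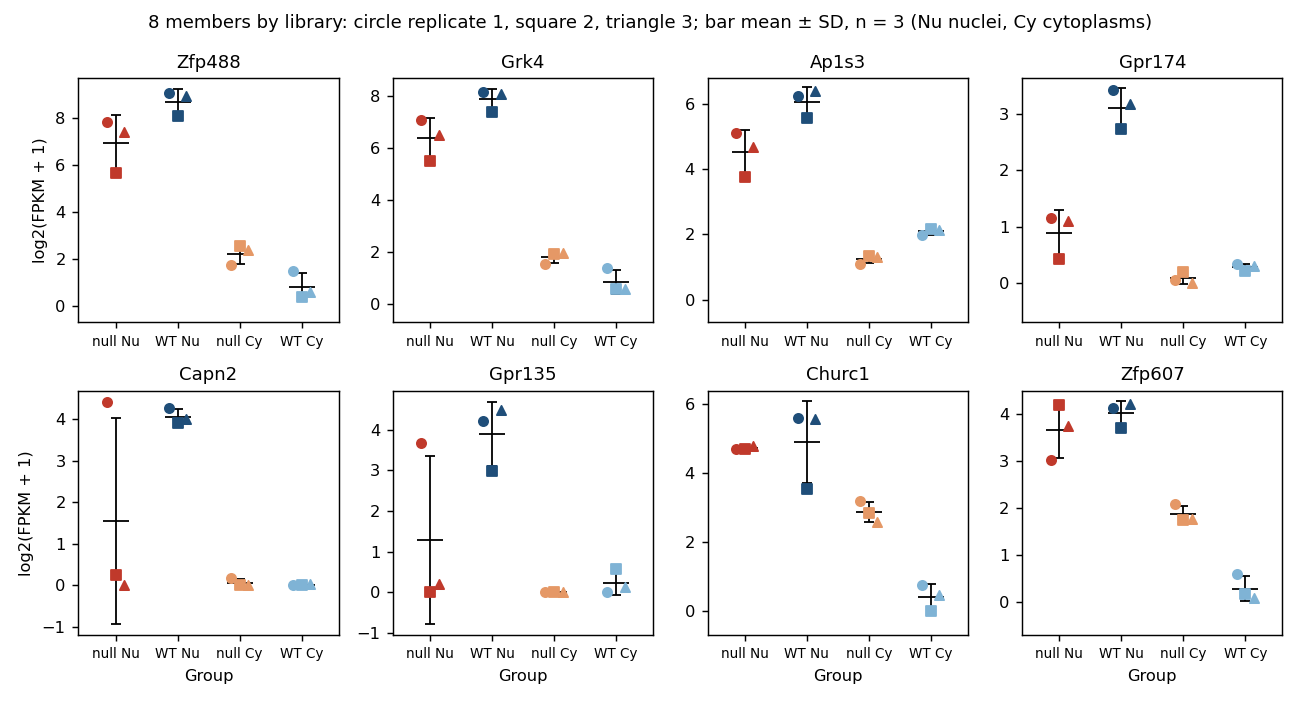
Levels of 8 of the genes by library as log2(FPKM + 1), in Mtr4-null-labelled nuclei, WT nuclei, Mtr4-null cytoplasms and WT cytoplasms (left to right in each panel); circles, squares and triangles are replicates 1, 2 and 3, and bars give the mean ± SD (n = 3). Capn2 and Gpr135 are near 0 in replicates 2 and 3 of the Mtr4-null-labelled nuclei and within or above the WT range in replicate 1, while Churc1 and Zfp607 are higher in every Mtr4-null cytoplasm than in every WT cytoplasm.

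Several genes were nearly missing in replicates 2 and 3 of the Mtr4-null-labelled nuclei and higher in replicate 1. Capn2 was at 20.4, 0.189 and 0 FPKM in the Mtr4-null-labelled nuclei, against 18.4, 14.1 and 15.0 FPKM in WT nuclei. Gpr135 was at 11.9, 0 and 0.156 FPKM in the Mtr4-null-labelled nuclei and at 17.5, 6.94 and 21.4 FPKM in WT nuclei. In replicate 1 Capn2 lay above every WT nucleus and Gpr135 within their range. Serpinb9, a gene of the granzyme B inhibitor family, was at 7.29, 0 and 0.0572 FPKM in the Mtr4-null-labelled nuclei and at 19.5, 7.15 and 8.66 FPKM in WT nuclei. Col4a5 was at 3.73, 0 and 0.0597 FPKM in the Mtr4-null-labelled nuclei and at 10.4, 6.56 and 5.17 FPKM in WT nuclei. With AA465934, Adamts19 and Apob, the apolipoprotein B gene, these made 7 genes below 1 FPKM in both replicates 2 and 3, a set chosen after its values were seen. They are 8.86% of the members, and 31 of the 5392 rows (0.575%) with at least 5 FPKM in every WT nucleus met the same limit. In the library labelled as Mtr4-null nucleus replicate 1, 4 of the 7 held at least 5 FPKM, and Col4a5, Adamts19, Apob and AA465934 lay below every WT nucleus there, while the other 3 did not. With all 3 libraries the calls of Capn2 and Gpr135 between the nuclei failed (log2 -2.51 ± 0.79, limma adjusted p = 0.105, and -2.60 ± 0.72, adjusted p = 0.0683).

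A few members went the other way in 1 library. BC018473 and BC039771, both long noncoding RNA genes, and Tmem38b were above every WT nucleus in the library labelled as Mtr4-null nucleus replicate 2. BC039771 was at 11.3, 34.5 and 11.2 FPKM in the Mtr4-null-labelled nuclei and at 14.5, 19.2 and 25.9 FPKM in WT nuclei. In the other Mtr4-null-labelled nuclei it lay below every WT nucleus.

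Between the cytoplasms the levels were low in both genotypes and few genes were called. The rule required low values in WT cytoplasms, so these counts too are a description. Over the members the median level was 0.518, 0.527 and 0.588 FPKM in Mtr4-null cytoplasms and 0.450, 0.312 and 0.318 FPKM in WT cytoplasms. Of 79 genes, 2 were called higher and 0 lower (limma adjusted p below 0.05; 14 higher and 1 lower unadjusted), against 1.17% higher and 0.714% lower of tested genes. The log2 fold change was positive in 53 genes, with a median of 0.13 over the 79 and 0 over all tested genes. Every Mtr4-null cytoplasm lay above every WT cytoplasm in 31 genes and below in 7, against 23.0 and 20.9% of tested genes. The summed FPKM without Lars2 and Tmem38b was 97.8, 108 and 107 in Mtr4-null cytoplasms and 74.2, 58.0 and 62.7 in WT cytoplasms.

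Churc1, which encodes a zinc-binding transcriptional regulator, was at 8.03, 6.11 and 4.99 FPKM in Mtr4-null cytoplasms and at 0.668, 0 and 0.355 FPKM in WT cytoplasms (log2 fold change 2.47 ± 0.47, limma adjusted p = 0.0152). Its nuclear levels were 25.1, 24.6 and 26.5 FPKM in the libraries labelled Mtr4-null and 47.1, 10.5 and 46.4 FPKM in WT, so the WT nuclei spanned those labelled Mtr4-null. Zfp607, a zinc finger gene, was at 3.23, 2.37 and 2.40 FPKM in Mtr4-null cytoplasms and at 0.506, 0.127 and 0.0623 FPKM in WT cytoplasms (log2 1.58 ± 0.36, adjusted p = 0.0368). Both calls rested on single libraries: that of Churc1 was lost without any 1 of the 3 Mtr4-null cytoplasms or without WT cytoplasm replicate 2 or 3, and that of Zfp607 without any 1 of the 6 cytoplasms. The adjusted p reached 0.107 for Churc1 and 0.205 for Zfp607 over the alternatives. A fit of the cytoplasms alone, whose filter kept 25 of the genes, called 16 higher and 2 lower, where 15.5 and 12.5% of its tested genes were called. Leaving out replicates 1 and 3 of the Mtr4-null-labelled nuclei, which enter this comparison only through the common variance estimate and the set of tested genes, 10 were called higher and 1 lower (6.63 and 4.21% of tested genes). Both conditions together, every Mtr4-null-labelled nucleus below every WT nucleus and every Mtr4-null cytoplasm above every WT cytoplasm, were met by 16 of the 79 genes and 0.980% of tested genes.

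Other members reached a few FPKM in the Mtr4-null cytoplasm. Dcdc2c was at 10.1, 9.67 and 14.6 FPKM in Mtr4-null cytoplasms and at 7.39, 2.503 and 5.48 FPKM in WT cytoplasms (log2 1.09 ± 0.42, limma adjusted p = 0.239). The noncoding 4932411L15 had a log2 fold change of 1.38 ± 0.34 (adjusted p = 0.0535) and Lars2 one of 3.41 ± 1.15 (adjusted p = 0.162). Ttn was at 5.83, 4.63 and 6.80 FPKM in Mtr4-null cytoplasms and at 5.72, 4.77 and 5.41 FPKM in WT cytoplasms, which overlapped. The 7 members below every WT cytoplasm in all 3 Mtr4-null cytoplasms were Ap1s3, Tas2r137, Dnahc2, H2-Q4, Gpr174, Col4a5 and Adamts19. Ap1s3 was at 1.14, 1.52 and 1.46 FPKM in Mtr4-null cytoplasms and at 2.91, 3.47 and 3.41 FPKM in WT cytoplasms, a log2 fold change of -0.85 ± 0.37 (adjusted p = 0.348).

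The 129 rows that met the same thresholds under a left-out name were fitted with the rest. WT values chose these rows too, so their counts between the genotypes are a description. In the compartments labelled Mtr4-null 107 of them were called higher in the nucleus and 0 lower (limma), with a median log2 fold change of 2.59 (82.9% of these rows, against 79.7% of the 79 genes). Between the nuclei 22 were called lower and 0 higher in Mtr4-null, with a median of -1.27 (17.1%, against 12.7% of the 79 genes). Between the cytoplasms 10 were called higher and 0 lower, with a median of 0.28 (7.75%, against 2.53% of the 79 genes). Over all tested genes 4.08% were called higher in the nucleus of Mtr4-null. Between the nuclei 1.75% were lower in Mtr4-null, and between the cytoplasms 1.17% were higher. A difference between these 129 rows and the 79 genes was not tested.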

How the data were processed

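Total RNA of nuclei and cytoplasms was measured in 12 libraries, 3 for each of 4 groups taken from the sample labels. The authors deposited FPKM per gene; per the submitters' processing notes TopHat2 2.1.1, Cufflinks 2.2.1 and build mm9 were used, while the sources used here give neither the annotation nor the strand setting. Read numbers were not used here, so depth is unknown and no counting intervals are given. The 13157 genes that reached 1 FPKM in 3 or more libraries were fitted with limma 3.58.1 in R 4.3.3 on log2(FPKM + 1), which understates changes of low genes, with 4 group means and a variance trend. P-values are two-sided with Benjamini-Hochberg adjustment over all tested genes. All 79 members passed this filter, 66 of them also within the 6 Mtr4-null libraries. The fit was also run on simulated data that gave each gene the same spread in all groups. Unequal spreads of nuclei and cytoplasms were therefore not tested by it. No 2 libraries held identical values (0 pairs), and 3722 rows were at 0 throughout. The members, the gene lists and the rule for named genes were chosen with earlier results of these data known. The rule took the members highest in WT nuclei or in Mtr4-null cytoplasms, the largest called changes, those nearest the threshold and up to 4 of each family. A few more members were named after their values were seen, and 1 member is counted in the totals but not reported here by itself. All 79 members were matched to RefSeq, 11 by an older name. Names, gene structure and promoters came from RefSeq (GRCm38.p6) and GENCODE M21, which are not the build of the table, so no coordinates were joined.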

Additional observations from a re-analysis of the deposited data

Results flagged for a closer look

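In 16 of the 79 genes every nucleus labelled Mtr4-null lay below every WT nucleus while every Mtr4-null cytoplasm lay above every WT cytoplasm, so the measured levels lay apart in opposite directions in the 2 compartments. The same held for 129 of the 13157 tested genes (0.980%). Taken singly, these conditions were met by 46 and 31 of the 79 genes. Of the 16, only Glrx2 and L3mbtl4 were called between the nuclei and none between the cytoplasms (limma adjusted p below 0.05). Some cytoplasmic levels were near 0: 9930111J21Rik1 reached at most 0.115 FPKM in Mtr4-null cytoplasms. The difference between the compartments was not tested, and the WT libraries of both sets had chosen the genes. The 16 were 4932411L15, 9930111J21Rik1, AA465934, Cxcr2, Gjc3, Glrx2, Grk4, L3mbtl4, Lix1, Slc6a18, Soat2, Tapbpl, Tmem69, Tyr, Zbed6 and Zfp488. Tyr, the tyrosinase gene of melanin synthesis, was at 8.30, 9.45 and 7.60 FPKM in the Mtr4-null-labelled nuclei against 13.5, 9.81 and 19.2 FPKM in WT nuclei. In the cytoplasms Tyr was at 1.40, 1.04 and 1.26 FPKM in Mtr4-null and at 0.375, 0.0601 and 0.199 FPKM in WT. Tmem69, a transmembrane protein gene, was at 9.66, 8.69 and 11.8 FPKM in the Mtr4-null-labelled nuclei and at 21.04, 15.4 and 21.7 FPKM in WT nuclei. Its cytoplasmic levels were 2.43, 1.71 and 1.97 FPKM in Mtr4-null cytoplasms and 1.22, 1.06 and 1.33 FPKM in WT cytoplasms.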

How the results depend on the processing

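The number of genes that met the rule was 119 at a factor of 4, 47 at 16, 202 at a minimum of 2 FPKM and 39 at 10 FPKM, and lay between 80 and 163 when 1 WT library was left out. Calls between the compartments labelled Mtr4-null were 63, 62 with a pseudocount of 0.1, 53 without the filter, 41 of 66 in a fit of those groups alone and 40 to 67 with 1 library left out. Over all tested genes 537 of 13157 were called higher and 2680 lower with that pseudocount, and 365 and 836 of 19513 without the filter. Between the nuclei, the 10 calls became 2 with a pseudocount of 0.1, 47 with median-of-ratios scaling, 45 with quantile normalization, 0 in a fit of the nuclei alone and 53 without Mtr4-null nucleus replicates 1 and 3, and were 2 to 45 with 1 library left out. Between the cytoplasms, the 2 calls became 4 with a pseudocount of 0.1, 0 without the filter or with quantile normalization, 1 with median-of-ratios scaling, 18 in a fit of the cytoplasms alone and 11 without Mtr4-null nucleus replicates 1 and 3, and were 0 to 1 with 1 library left out. Replicate numbers are not said to pair libraries, and deviations of same-numbered libraries correlated between -0.15 and 0.30; a replicate block gave 68, 22 and 4 calls in the 3 comparisons. Of 546 alternatives for 42 named results, 425 kept the direction and the call, 120 lost the call and 1 turned the direction. Peg3as between the compartments labelled Mtr4-null was at -0.084 without Mtr4-null nucleus replicates 1 and 3, which left 1 library in that nuclear set. Of the 30 named calls between those compartments 18 held in every alternative run, and 0 of 10 between nuclei and 0 of 2 between cytoplasms did. Apart from the fits with other samples, the causes were not tested. Depth is unknown, and the values of the nuclei rest on 10 nuclei per library.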
